A study of Mus musculus with 2 samples.

Results

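Chaperones are proteins that bind unfolded or newly made proteins and keep them from clumping until they fold. The genes described here are the heat shock protein families Hsp70, Hsp110, Hsp90 and the small heat shock proteins, the J proteins that bring substrates to Hsp70, the BAG proteins that make Hsp70 release ADP, the subunits of the ring-shaped cytosolic chaperonin TRiC/CCT, and the chaperones and disulfide isomerases of the endoplasmic reticulum and the mitochondrion. They were chosen by gene symbol among the probe sets that the array's annotation pairs with 1 gene. The rule took 212 of 45101 probe sets and 87 of 18193 genes. Of the 87 genes, 73 were bright enough to count as measured (mean log2 signal over both arrays at or above the median of all probe sets), against 11312 of the 18193 genes in all.

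The tissue was mouse hypothalamus, the brain region that controls feeding, body temperature and pituitary hormones. The Crtc1_KO array held RNA of mice lacking Crtc1, a protein that helps CREB switch on its target genes, and the Crtc1_WT array held RNA of wild-type mice. All animals were males of 12 weeks that had gone 18 h without food and then had 6 h of refeeding, and RNA of 3 mice per genotype was mixed for 1 array each. No unfasted or fasted-only group was analysed here, and the sources used here do not give the strain or how the allele was made. With 1 pooled array per genotype no difference could be tested, so "higher" and "lower" below describe these 2 arrays.

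As background, chaperone genes fall under separate controls. Heat shock factor drives the cytosolic heat shock genes through repeated GAA units in their promoters, and the unfolded protein response drives the chaperones of the endoplasmic reticulum through the ER stress element. Neurons express the constitutive forms of Hsp70 and Hsp90 strongly even without stress, and J proteins serve synaptic vesicle cycling there.

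Crtc1 itself read 85.1 in the knockout and 631.3 in the wild-type pool, a difference in the direction of the labels. Both arrays had the same mean once the lowest and highest 2% of probe sets were left out, and the floor under which signals were not ranked was 20.5 in the knockout and 20.2 in the wild-type array. The ratio of 3' to 5' actin probe sets, a sign of RNA length, was 1.47 in the knockout and 1.25 in the wild-type array, and that of Gapdh was 0.863 in the knockout and 0.873 in the wild-type array. Of 13 hypothalamic markers 10 were measured, 3 higher and 7 lower in the knockout, with a median of -0.12 and 6 beyond the array error. They ran from Cartpt, at 401.5 in the knockout and 706.8 in the wild-type pool (-0.82), to Avp, at 1690 in the knockout and 1149 in the wild-type pool (0.56). Sim1 and Rax were not measured, and Agrp had no probe set of its own in the annotation used.

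None of the 73 measured chaperone genes differed by 1.5-fold or more between the pools, where 3.51% of all measured genes did. Their median difference, taken as log2 signal in the knockout minus that in wild type, was -0.01, with 33 genes higher, 39 lower and 1 equal in the knockout pool. For all measured genes the median was 0.00. At a limit of 1.2-fold, 3 chaperone genes were higher in the knockout (4.11%, against 11.9% of all measured genes) and 7 were lower (9.59%, against 9.99%). The 3 higher genes were Dnajc18, Dnajb1 and Dnaja4. The 7 lower ones were Pdia4, Bag3, Hspb6, Hspb8, Bag2, Dnajc24 and Bag6. In the values reported, the share of chaperone genes past 1.2-fold on the low side was therefore close to that of all genes, and the share on the high side was below it. The low-side share changed with the processing, as given at the end. These shares were not matched for brightness, and the chaperones were brighter than most genes.

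The absence of 1.5-fold differences depended on the scaling of the arrays. Bag3, Hspb6 and Pdia4 lay just inside the limit, Bag3 and Hspb6 at 1.47-fold lower and Pdia4 just under 1.5-fold lower. Under median centring, quantile normalization or a loess curve the same 3 genes passed it, and no other chaperone gene did. Of all measured genes 3.48%, 3.39% and 3.40% passed it under these scalings. With 3 of 73 past the limit, the chaperones were then not short of such genes.

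**Figure D1:**
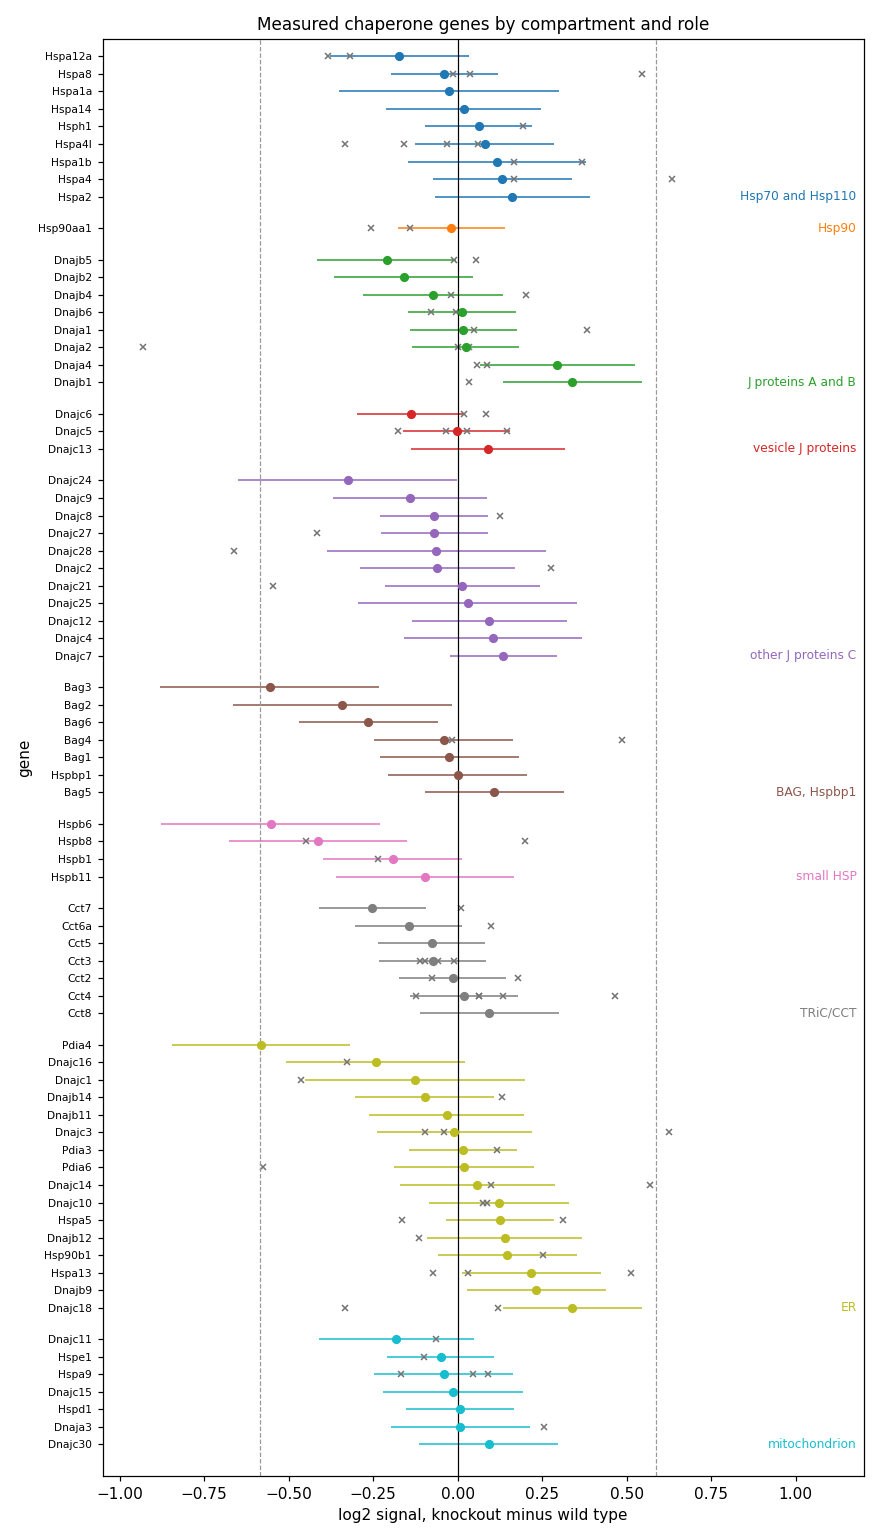
Difference of each measured chaperone gene (log2 signal, knockout minus wild type), grouped by compartment and role. Points are the brightest measured probe set, bars the array error on each side, crosses the gene's other measured probe sets, and dashed lines 1.5-fold. All points lie between -0.58 and 0.34, and the 4 measured small heat shock proteins all lie left of 0.

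The chaperones were brighter than most genes, with a median mean log2 signal of 9.28 against 8.31 for all measured genes, and brighter probe sets scatter less. The array error, which is how far probe sets for 1 gene scatter around each other (SD, measured ones only), shrank with brightness. It was 0.32 for the dimmest genes, with a mean log2 signal under 7, then 0.26, 0.23 and 0.21 for each step of 1 upwards, and 0.16 for the brightest, over 10. It holds no spread between mice. The SD of the differences was 0.18 over the chaperone genes and 0.25 over all measured genes, and 63 chaperone genes (86.3%) lay within 1.2-fold, against 78.1% of all genes. The 5th to 95th percentiles ran from -0.37 to 0.22 for the chaperones and from -0.37 to 0.42 for all genes. The chaperones' high side was thus the narrower one. Of the 73 genes, 14 (19.2%) differed by more than their array error, against 25.2% of all measured genes.

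The genes furthest on the low side were mostly dim. Of the 14 chaperone genes with a mean log2 signal below 8, 6 were at least 1.2-fold lower in the knockout, where 14.5% of all such dim genes were, and 0 were at least 1.2-fold higher, where 21.0% of them were. Of the 59 brighter chaperone genes 0 reached 1.5-fold in either direction, against 0.756% of all genes of that brightness. This division by brightness was chosen after the values were seen.

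**Figure D2:**
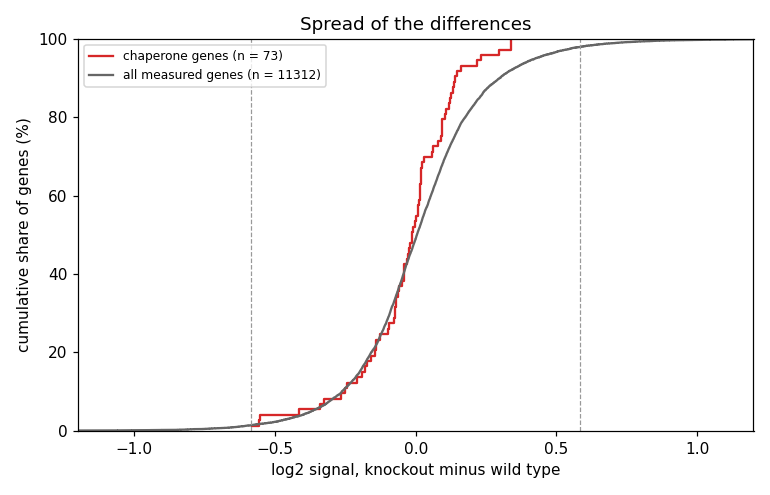
Cumulative share of genes (percent) by difference (log2 signal, knockout minus wild type) for the 73 chaperone genes and all 11312 measured genes. Dashed lines mark 1.5-fold. The curves run together on the low side, and on the high side the chaperones end at 0.34, while the 95th percentile of all genes is 0.42.

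Hsp70 proteins hold short hydrophobic stretches of unfolded chains and let go of them as they turn over ATP, and Hsp110 proteins help them exchange nucleotide. The constitutive Hspa8 read 6628 in the knockout and 6815 in the wild-type pool, a difference of -0.04, and its next 2 probe sets differed by 0.04 and -0.01. The fourth and dimmest probe set of Hspa8 read 101.1 in the knockout and 69.3 in the wild-type pool (0.54), apart from the other 3. Hsph1, an Hsp110 that rises on heat shock, read 2668 in the knockout and 2556 in the wild-type pool (0.06), with its other probe set at 0.19. By their brightest probe sets, both genes thus differed by less than their array error of 0.16.

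The stress-inducible pair Hspa1a and Hspa1b was low in both pools. Hspa1a read 110.3 in the knockout and 112.3 in the wild-type pool (-0.03), and Hspa1b read 142.2 in the knockout and 131.1 in the wild-type pool (0.12), with other probe sets at 0.37 and 0.17. The genes are near-identical copies, so their signals cannot be told apart with certainty. The largest differences among the 9 measured genes of the 11 in the group were those of Hspa12a, at 761.7 in the knockout and 858.4 in the wild-type pool (-0.17), and of the testis-rich Hspa2, at 335.2 in the knockout and 299.8 in the wild-type pool (0.16). Those of Hspa4, at 574.4 in the knockout and 524.0 in the wild-type pool (0.13), and of Hspa1b came next. Over the group 6 genes were higher and 3 lower in the knockout, with a median of 0.06 and none beyond its array error by its brightest probe set. The other 2 probe sets of Hspa12a were both beyond theirs, at 600.5 in the knockout and 783.9 in the wild-type pool (-0.38) and at 209.6 in the knockout and 261.5 in the wild-type pool (-0.32). Averaged over the 3, Hspa12a stood at -0.29. Hspa12a thus read lower in the knockout by each of its measured probe sets. Hspa12b and Hspa1l were not measured.

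Hsp90 finishes the folding of kinases and steroid receptors. Hsp90aa1, its inducible cytosolic form, read 4495 in the knockout and 4555 in the wild-type pool (-0.02), while its other measured probe sets stood at -0.26 (4132 in the knockout, 4938 in the wild-type pool) and -0.14. All 3 read lower in the knockout, by unequal amounts. Under quantile normalization the value of the gene stood at -0.22. The probe sets at -0.02 and -0.26 were nearly tied in brightness, with mean log2 signals of 12.144 and 12.141. Whether a change of the brightest probe set gave the value of -0.22 was not tested. Hsp90ab1, the constitutive form, had no probe set paired with it alone and is not analysed here.

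J proteins carry a J domain that makes Hsp70 hydrolyse ATP. Of the 12 cytosolic and nuclear genes of classes A and B, 8 were measured, with 5 higher, 3 lower and a median of 0.01. Under median centring the group's median stood at -0.04 and that of all measured genes at -0.06. The brightest were Dnaja1, at 2636 in the knockout and 2606 in the wild-type pool (0.02), and Dnaja2, at 2418 in the knockout and 2379 in the wild-type pool (0.02). Both general J partners of Hspa8 thus read nearly alike in the pools by their brightest probe sets. The third probe set of Dnaja1 stood at 0.38, and a dim probe set of Dnaja2 read 74.3 in the knockout and 141.5 in the wild-type pool (-0.93).

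Dnajb1, the Hsp40 of the heat shock response, read 920.6 in the knockout and 728.0 in the wild-type pool, a difference of 0.34 with an array error of 0.21. Its second probe set read 604.2 in the knockout and 590.2 in the wild-type pool (0.03). The higher reading of Dnajb1 therefore rested on 1 of 2 probe sets. Dnaja4 read 482.4 in the knockout and 393.3 in the wild-type pool (0.29), with its other probe sets at 0.09 and 0.06, and Dnajb5, an Hsp40 of heart and brain, read 513.6 in the knockout and 594.2 in the wild-type pool (-0.21), with its other probe sets at -0.01 and 0.05. Dnajb2, a neuronal J protein, read 848.2 in the knockout and 947.8 in the wild-type pool (-0.16). Dnajb3, Dnajb7, Dnajb8 and Dnajb13 were not measured. Dnajb1, Dnaja2 and Bag4 lie on chromosome 8, as Crtc1 does, at 135, 199 and 232 genes from it.

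The J proteins of vesicles and endosomes read nearly alike in the pools. Dnajc5, the cysteine string protein of synaptic vesicles, read 1725 in the knockout and 1729 in the wild-type pool. Dnajc6, auxilin, which helps Hspa8 strip clathrin from vesicles, read 2637 in the knockout and 2904 in the wild-type pool (-0.14). Dnajc13, an endosomal J protein, read 431.8 in the knockout and 405.7 in the wild-type pool (0.09). None of these 3 differed by more than its array error.

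Among the other class C J proteins 11 of 13 were measured, 5 higher and 6 lower, with a median of -0.06 that stood at 0.03 where probe sets of a gene were averaged. Dnajc24, which acts in the synthesis of diphthamide, a modified residue of an elongation factor, read 100 in the knockout and 125.3 in the wild-type pool (-0.33, array error 0.32). It was the 1 gene of the group past its array error. Dnajc8, linked to splicing, read 1868 in the knockout and 1961 in the wild-type pool (-0.07), and Dnajc7, which binds both Hsp70 and Hsp90, read 1240 in the knockout and 1130 in the wild-type pool (0.13). Dnajc9, a histone chaperone, read 311.6 in the knockout and 343.6 in the wild-type pool (-0.14). Dnajc17 and Dnajc22 were not measured.

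BAG proteins bind the ATPase domain of Hsp70 and trigger nucleotide exchange, as Hspbp1 does. All 7 genes of this group were measured, with 1 higher, 5 lower and 1 equal in the knockout and a median of -0.04. Bag3, which joins Hsp70 to small heat shock proteins in selective autophagy, read 72.1 in the knockout and 106.0 in the wild-type pool (-0.56, array error 0.32). Of all measured genes 4.11% differed at least as far. Bag2, an inhibitor of the ubiquitin ligase Stub1, read 111.3 in the knockout and 141.0 in the wild-type pool (-0.34). Bag6, which guards membrane proteins before insertion, read 506.1 in the knockout and 608.0 in the wild-type pool (-0.26, array error 0.21). These 3 had 1 measured probe set each and were the genes of the group beyond their array error. Bag1 read 985.3 in the knockout and 1003 in the wild-type pool (-0.03), Bag4 read 791.6 in the knockout and 814.9 in the wild-type pool (-0.04, with a dim probe set at 0.49), and Bag5 read 535.5 in the knockout and 496.7 in the wild-type pool (0.11).

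Small heat shock proteins hold unfolding proteins in large oligomers without using ATP. All 4 measured genes of the 8 on the array read lower in the knockout, with a median of -0.30, and 2 of them by more than their array error. Hspb6, abundant in muscle, read 95.2 in the knockout and 139.7 in the wild-type pool (-0.55, array error 0.32, 1 probe set). Hspb8, the partner of Bag3, read 144.8 in the knockout and 192.8 in the wild-type pool (-0.41, array error 0.26), and a second probe set stood at -0.45 (100.6 in the knockout, 137.3 in the wild-type pool). The third probe set went the other way, at 82.8 in the knockout and 72.2 in the wild-type pool (0.20).

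Hspb1, the heat-inducible Hsp27, read 519.8 in the knockout and 593.7 in the wild-type pool (-0.19), and its second probe set read 221.3 in the knockout and 260.3 in the wild-type pool (-0.23). Hspb11, which despite its symbol is a subunit of the intraflagellar transport complex of cilia, read 127.3 in the knockout and 136.1 in the wild-type pool (-0.10). Each of the 4 genes kept its sign under each of the alternative settings in which it was measured. The lens crystallin Cryab, a small heat shock protein by family that the symbol rule does not take, read 1139 in the knockout and 1062 in the wild-type pool (0.10). The lower readings thus did not extend to Cryab. Hspb2, Hspb3, Hspb7 and Hspb9 were not measured, and with those 4 dim genes added the median of the group stood at -0.04.

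Markers of other cell types also differed between the pools. Of 5 choroid plexus markers, all measured, 5 read lower in the knockout, with a median of -0.43 and a summed signal of 8433 in the knockout and 9514.5 in the wild-type pool. Endothelial markers were higher for 3 of 4 (summed signal 1489 in the knockout, 1330 in the wild-type pool), microglial ones for 3 of 4 (1102.5 in the knockout, 915.6 in the wild-type pool) and astrocyte ones for 4 of 4 (9827 in the knockout, 9323 in the wild-type pool). Beyond their array error were 4 of 5 choroid plexus markers, 2 of 4 endothelial, 2 of 4 microglial and 1 of 4 astrocyte ones. None of these 17 markers was at the floor. Of 5 markers of ciliated ependyma 3 were measured, 1 higher and 2 lower (216.6 in the knockout, 196.4 in the wild-type pool), and Tekt1 and Dnah12 were not measured. Markers of neighbouring brain regions read higher in the knockout. All 3 of cortex and hippocampus did, with a median of 0.36 and a summed signal of 1035 in the knockout and 796.1 in the wild-type pool, and Neurod6 among them was 1.57-fold higher. All 3 of striatum did as well, with a median of 0.13 (1432 in the knockout, 1238 in the wild-type pool). Beyond their array error were 2 of the 3 markers of cortex and hippocampus and 1 of the 3 of striatum. The 4 neuronal markers, 2 higher and 2 lower, had a median of 0.01 and the 3 measured oligodendrocyte ones, 2 higher and 1 lower, one of 0.02. The part of these cell types and regions in the differences of the chaperones, among them the readings of Hspb6, Hspb8 and Bag3 was not tested. In tissue RNA, fewer cells of a type and less RNA per cell cannot be told apart.

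**Figure D3:**
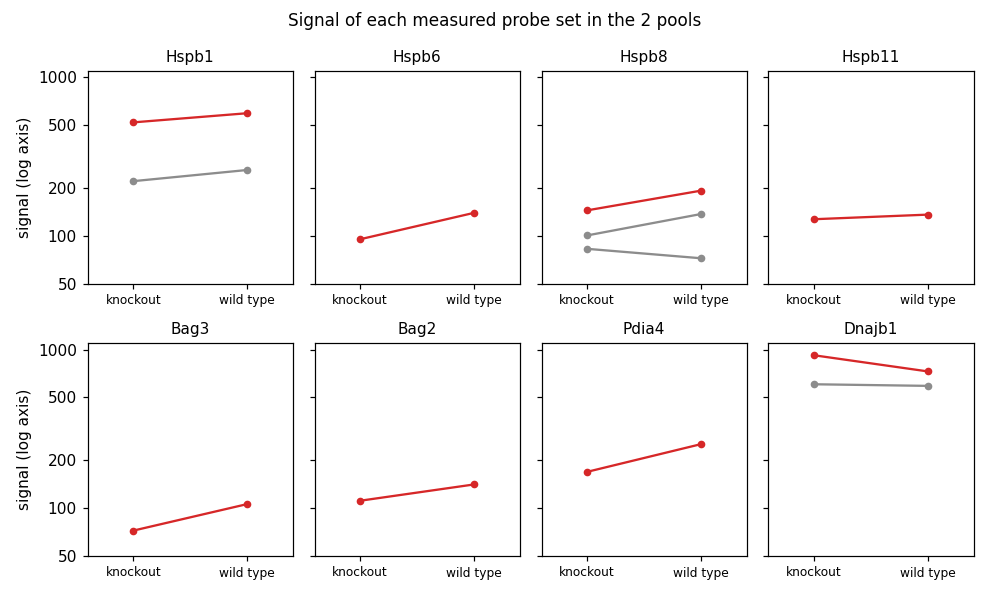
Signal (log axis) of every measured probe set in the knockout pool (left) and the wild-type pool (right) for the small heat shock proteins, Bag3, Bag2, Pdia4 and Dnajb1. Red lines are the brightest probe set of each gene and grey lines the others. Lines that climb to the right read lower in the knockout, as for Hspb6 at 95.2 against 139.7, and the third probe set of Hspb8 and both of Dnajb1 run the other way.

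The promoters of these genes were searched for the GAA units through which heat shock factor is known to act. RefSeq windows (GRCm38.p6) from 250 bases before to 50 bases after a transcript start were found for 73 of the 87 genes and 61 of the 73 measured ones. They were searched on both strands for GAANNTTC, which reads the same on both. It was present for 14 of the 61 genes (23.0%), against 9.04% of all genes with a window. Those are 27025 genes, measured or not, so the motif shares of all genes here do not come from a matched set. Windows are printed for Bag3 (chr7:128523333-128523632, + strand), Hspb8 (chr5:116422815-116423114, - strand), Hspb6 (chr7:30553051-30553350, + strand) and Hspb1 (chr5:135887669-135887968, + strand). A second window of Hspb6 holds no match. These genes are lower-reading small heat shock proteins and their BAG partner, a choice made after their values were seen. Hspb11, the other measured small heat shock protein, also read lower (-0.10) and has no GAANNTTC. Hspa1b, which read higher (0.12), has GAANNTTC and is not printed. Capitals mark GAANNTTC.

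Bag3: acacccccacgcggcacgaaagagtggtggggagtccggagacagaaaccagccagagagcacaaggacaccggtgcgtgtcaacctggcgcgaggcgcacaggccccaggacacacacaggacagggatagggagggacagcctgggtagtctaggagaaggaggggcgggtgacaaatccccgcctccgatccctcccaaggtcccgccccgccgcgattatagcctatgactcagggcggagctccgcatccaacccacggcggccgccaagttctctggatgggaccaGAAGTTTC

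Hspb8: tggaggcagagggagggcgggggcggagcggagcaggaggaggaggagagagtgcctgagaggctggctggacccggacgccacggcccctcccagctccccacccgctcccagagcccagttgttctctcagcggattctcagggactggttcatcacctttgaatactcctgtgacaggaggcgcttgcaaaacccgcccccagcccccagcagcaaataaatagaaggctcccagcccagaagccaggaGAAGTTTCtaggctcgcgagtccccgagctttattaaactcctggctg

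Hspb6: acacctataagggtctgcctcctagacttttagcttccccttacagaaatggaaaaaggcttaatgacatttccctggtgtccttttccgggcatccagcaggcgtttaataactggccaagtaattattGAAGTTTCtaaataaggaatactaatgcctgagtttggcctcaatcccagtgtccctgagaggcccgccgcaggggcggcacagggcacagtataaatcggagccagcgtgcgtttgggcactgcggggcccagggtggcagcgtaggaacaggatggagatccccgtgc

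Hspb1: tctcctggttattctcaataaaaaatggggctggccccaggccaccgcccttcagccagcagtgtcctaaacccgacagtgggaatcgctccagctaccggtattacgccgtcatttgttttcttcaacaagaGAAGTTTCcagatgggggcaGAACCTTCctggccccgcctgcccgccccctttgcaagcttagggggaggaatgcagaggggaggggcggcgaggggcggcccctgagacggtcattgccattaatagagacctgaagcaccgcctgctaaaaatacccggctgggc

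Each of the 4 printed windows holds the same 8 letters, GAAGTTTC, and Hspb1 has a further match 20 bases on. In Bag3 and Hspb8 the match lies after the transcript start, at 42 and 2 bases from it. None of these 4 windows holds the heat shock element of 3 units described below. That 8-letter form, searched for only after these windows had been read, is present for 5 of the 61 measured chaperone genes (8.20%) and for 1.35% of all genes. The fifth gene is the chaperonin subunit Cct2, whose difference was -0.01. Because the form was picked from promoters of chaperone genes that read lower, the direction of those 4 genes says nothing about it. The same 4 genes make up most of the 8.20%, so that share was raised by the choice and cannot be read as an excess. Over all 14 genes with GAANNTTC the differences ran from -0.56 to 0.29 with a median of -0.02, 6 higher and 8 lower, and over the 47 genes without it the median was -0.01. The motif and the direction of the difference thus did not go together across the list.

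The inverted form TTCNNGAA was present for 8 of the 61 genes (13.1%) and 9.60% of all genes. A heat shock element of 3 units, in which the motifs GAANNTTC and TTCNNGAA overlap by their shared middle unit, was present for 4 (6.56%), against 0.662% of all genes. These were Dnajb6, Hspd1, Hspe1 and Hsph1, and their differences lay between -0.05 and 0.06. The genes with the full 3-unit element therefore read nearly alike in the pools. The full CREB site TGACGTCA, sought because Crtc1 acts with CREB, was present for 1 gene (1.64%, against 2.03% of all genes), Dnajc27, a J protein with a GTPase domain, which read 1104 in the knockout and 1158 in the wild-type pool (-0.07). The CREB site's short form TGACG, which also lies within TGACGTCA, was present for 32 genes (52.5%), against 23.0% of all genes. Those 32 genes had a median of 0.01, with 17 higher and 15 lower. Whether other measured genes carry TGACG as often was not tested.

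TRiC/CCT folds actin and tubulin in the cytosol, and its subunits act in equal numbers in each ring. All 7 subunits that the rule takes were measured, 2 higher and 5 lower, with a median of -0.07. Cct7 read 1136 in the knockout and 1354 in the wild-type pool (-0.25, array error 0.16), but its other probe set read 1206 in the knockout and 1196 in the wild-type pool (0.01). Cct6a read 2207 in the knockout and 2441 in the wild-type pool (-0.15), with its other probe set at 0.10. The differences of both subunits were thus not shared by their second probe sets.

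Cct3 read 2365 in the knockout and 2490 in the wild-type pool (-0.07), and all 5 of its measured probe sets were lower. Cct2 read 2391 in the knockout and 2414 in the wild-type pool (-0.01), and Cct8 read 1026 in the knockout and 962.1 in the wild-type pool (0.09). Tcp1, the subunit that the symbol rule does not take, read 2435 in the knockout and 2258 in the wild-type pool (0.11). The subunits of the complex therefore did not share a direction.

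In the endoplasmic reticulum 16 of 17 genes were measured, 10 higher and 6 lower, with a median of 0.04. Under median centring the group's median stood at -0.02 and that of all measured genes at -0.06. Pdia4, a disulfide isomerase, was the furthest from 0 of all chaperone genes, at 169.3 in the knockout and 253.2 in the wild-type pool (-0.58, array error 0.26). Of all measured genes 3.58% differed at least as far, and the second probe set of Pdia4 was too dim to count. Its fellow isomerases differed little by their brightest probe sets. Pdia3 read 1395 in the knockout and 1380 in the wild-type pool (0.02), and Pdia6 read 517.0 in the knockout and 510.3 in the wild-type pool (0.02), with a dim probe set at -0.58. The low reading of Pdia4 was thus not seen in the brightest probe sets of the other 2 isomerases, and Pdia5 was not measured.

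Hspa5, the Hsp70 of this compartment known as BiP, read 2705 in the knockout and 2481 in the wild-type pool (0.13), with its other probe sets at 0.31 and -0.16. Hsp90b1, the compartment's Hsp90, read 911.6 in the knockout and 823.7 in the wild-type pool (0.15), and its second probe set stood at 0.25. Dnajb9, a J protein partner of Hspa5, read 1008 in the knockout and 857.6 in the wild-type pool (0.23, array error 0.21). By the brightest probe sets of these genes, only Dnajb9 was beyond its array error. The probe sets of Hspa5 at 0.31 and of Hsp90b1 at 0.25 were also beyond theirs, which was 0.21 for each. Among other partners of Hspa5, Dnajc3 stood at -0.01 and Dnajb11 at -0.03 by their brightest probe sets. Dnajc10, another J protein of this compartment, read higher by each of its measured probe sets (0.12, 0.08 and 0.09).

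Hspa13, another Hsp70 of this compartment, read 612.4 in the knockout and 526.6 in the wild-type pool (0.22), with its other probe sets at 0.51, 0.03 and -0.07. Dnajc16 read 218.6 in the knockout and 258.7 in the wild-type pool (-0.24), and its second probe set stood at -0.33. Dnajc18 had the highest difference of the list, 752.3 in the knockout and 594.7 in the wild-type pool (0.34), while its second probe set read 146.1 in the knockout and 184.1 in the wild-type pool (-0.33) and the third stood at 0.12. It was the 1 chaperone gene whose probe sets opposed each other by at least 1.2-fold, so its place among the higher genes rests on the choice of probe set.

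The ER stress element, CCAAT followed after 9 bases by CCACG, was present for 4 of the 61 measured genes, namely Dnajc3, Hsp90b1, Hspa5 and Pdia6 (6.56%, against 0.137% of all genes), searched on both strands. Their differences lay between -0.01 and 0.15. The window of Hspa5 (chr2:34771840-34772139, + strand) is shown as the holder and that of Pdia4 (chr6:47813463-47813762, - strand) as the compartment's furthest gene, with both parts of the element in capitals. Pdia4 has no such match in its window.

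Hspa5: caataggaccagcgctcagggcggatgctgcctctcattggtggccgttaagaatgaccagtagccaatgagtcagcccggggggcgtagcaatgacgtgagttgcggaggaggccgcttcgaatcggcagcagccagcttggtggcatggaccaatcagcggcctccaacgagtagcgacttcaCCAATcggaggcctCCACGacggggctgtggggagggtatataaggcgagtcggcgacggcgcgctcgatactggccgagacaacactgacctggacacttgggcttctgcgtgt

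Pdia4: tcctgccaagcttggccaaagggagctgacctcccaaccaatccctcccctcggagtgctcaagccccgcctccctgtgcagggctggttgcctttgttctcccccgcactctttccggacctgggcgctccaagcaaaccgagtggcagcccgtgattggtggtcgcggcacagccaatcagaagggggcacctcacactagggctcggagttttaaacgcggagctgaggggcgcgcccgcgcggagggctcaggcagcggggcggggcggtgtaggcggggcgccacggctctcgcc

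In the mitochondrion, all 7 measured genes lay between -0.18 and 0.09, with 3 higher, 4 lower, a median of -0.01 and none beyond its array error. Hspd1, the Hsp60 that forms the folding chamber, read 2036 in the knockout and 2027 in the wild-type pool (0.01), and Hspe1, its lid, read 1122 in the knockout and 1162 in the wild-type pool (-0.05). Hspa9, the Hsp70 that pulls proteins into the matrix, read 888.1 in the knockout and 913.7 in the wild-type pool (-0.04). The matrix folding machine thus read nearly alike in both pools. Dnajc11, which takes part in shaping the inner membrane, read 333.0 in the knockout and 377.7 in the wild-type pool (-0.18), and Dnajc30 read 798.1 in the knockout and 748.6 in the wild-type pool (0.09).

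Genes with several probe sets show how far 1 probe set can be trusted. Of the 46 chaperone genes with at least 2 measured probe sets, 21 (45.7%) had all of them on 1 side, against 42.5% of such genes on the whole array. Of the 159 measured chaperone probe sets 4 differed by 1.5-fold or more (2.52%), against 4.45% of all measured probe sets. All 4 were dimmer probe sets of genes whose brightest one differed by less than 1.2-fold. Those of Hspa4, an Hsp110, and of Dnajc3, an inhibitor of the kinase PERK, were higher in the knockout, and those of Dnaja2 and Dnajc28 were lower.

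The partners and regulators of the chaperones were described from lists that the symbol rule does not cover, and none of their 80 measured genes reached 1.5-fold except Tbcd under median centring (-0.62). Of all measured genes 3.51% did in the values reported and 3.48% under median centring. These shares were not matched for brightness. Of 19 Hsp90 and Hsp70 partners, 6 were higher and 13 lower in the knockout, with a median of -0.08, against a median of 0.00 and 49.0% lower for all measured genes. Beyond their array error were 7 of the 19 (36.8%), against 25.2% of all measured genes. Cdc37, which brings kinases to Hsp90, read 1217 in the knockout and 1502 in the wild-type pool (-0.30), and the membrane-bound immunophilin Fkbp8 read 1443 in the knockout and 1728 in the wild-type pool (-0.26). Sgta, a partner of Bag6, read 908.2 in the knockout and 1089 in the wild-type pool (-0.26). Tomm70a, the import receptor that docks Hsp70 and Hsp90 on mitochondria, stood opposite at 1143 in the knockout and 923.1 in the wild-type pool (0.31).

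Of the heat shock factors, Hsf1 had no probe set paired with it alone and Hsf2 was not measured. Hsf4 read 113.9 in the knockout and 134.7 in the wild-type pool (-0.24, within its array error). Of 17 genes known to be induced by heat shock, companions included, 9 were higher and 8 lower, with a median of 0.01. Of 16 genes known to be induced by stress of the endoplasmic reticulum, 8 were higher and 8 lower, with a median of 0.00. Neither induced set leaned to one side in these 2 arrays. Median centring put their medians at -0.05 and -0.06, and that of all measured genes at -0.06.

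The 28 further genes of folding and stress in the endoplasmic reticulum had 16 higher, 12 lower and a median of 0.01. Under median centring it stood at -0.05, and that of all measured genes at -0.06. Syvn1, a ubiquitin ligase of the disposal pathway, read 510.4 in the knockout and 641.1 in the wild-type pool (-0.33), and its partner Herpud1 read 666.8 in the knockout and 826.8 in the wild-type pool (-0.31). Atf4, the transcription factor of the integrated stress response, read 1284 in the knockout and 1085 in the wild-type pool (0.24), and Creld2 read 164.2 in the knockout and 139.3 in the wild-type pool (0.24). The 4 genes furthest from 0 thus fell evenly on both sides.

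Of 13 mitochondrial folding genes and proteases, 3 were higher and 10 lower, with a median of -0.04. The protease subunit Spg7 read 205.2 in the knockout and 282.4 in the wild-type pool (-0.46), and Clpp, the protease of the matrix, read 773.3 in the knockout and 957.7 in the wild-type pool (-0.31, but -0.01 where its probe sets were averaged). Of 15 prefoldin and tubulin folding genes, which work beside TRiC/CCT, 6 were higher and 9 lower, with a median of -0.01. Tbcd, a tubulin cofactor, read 421.4 in the knockout and 619.6 in the wild-type pool (-0.56), and Pdcl, a regulator of TRiC/CCT, read 340.9 in the knockout and 288.7 in the wild-type pool (0.24). Clu, a secreted chaperone, read 5904 in the knockout and 6148 in the wild-type pool (-0.06).

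**Figure D4:**
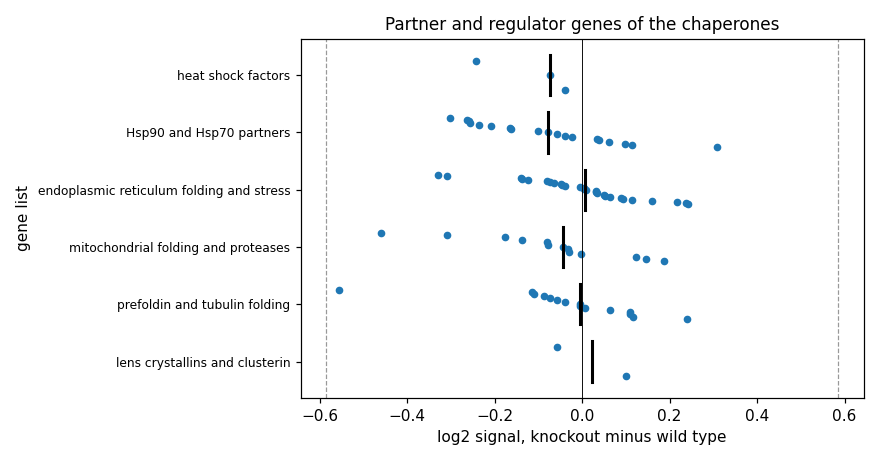
Differences (log2 signal, knockout minus wild type) of measured partner and regulator genes, 1 point per gene, in 6 lists. Thick vertical marks are medians and dashed lines 1.5-fold. No point passes a dashed line, and the nearest is Tbcd at -0.56.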

How the data were processed

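Hypothalamic RNA was pooled from 3 mice per genotype and hybridised to 1 Affymetrix whole-genome mouse expression array each. The authors' deposited values are linear signal intensities, 1 per probe set and array; the sources used here do not name the summarising algorithm or its scaling. Genes were named from the platform annotation. Signals under the 30th percentile of an array were set to it before log2 was taken. Probe sets with a mean log2 signal of at least 5.71, the median of all, were called measured. A gene took its brightest measured probe set, and differences are knockout minus wild type.

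With 1 array per group no test was possible, and the number of arrays limits the precision. Counts of genes past a fold are set beside those of all measured genes. Array error is the SD between measured probe sets of 1 gene, over 13701 probe sets.

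Any chaperone gene could be named; signals are given for those past 1.5-fold, for the 2 brightest and 4 furthest of each group, for genes with opposed probe sets, and for up to 4 genes of each companion list. The members and lists were chosen with earlier results of these data known. Alternatives were median centring, quantile normalization, loess (span 0.3), a lower floor (10th percentile) and a higher one (50th), a pseudocount of 16 in place of it, no filter on brightness or one set at the 70th percentile, averaging over a gene, dropping probe sets ending in _s_at, _x_at or _a_at, and updated symbols; a limit on brightness was added after seeing the data. The scripts ran in Python 3.11.15 with pandas 2.3.3 and statsmodels 0.14.6 and were tested on simulated data.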

Additional observations from a re-analysis of the deposited data

Results flagged for a closer look

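Probe sets other than the brightest of a gene enter no gene value, and 2 such probe sets of chaperone genes read higher in the knockout by 1.5-fold or more. A second probe set of Hspa4 read 490.6 in the knockout and 316.5 in the wild-type pool, a log2 difference of 0.63 with an array error of 0.23, against 0.13 for the brightest probe set. One of Dnajc3 read 145.4 in the knockout and 94.2 in the wild-type pool, a log2 difference of 0.63 with an array error of 0.32, against -0.01 for the brightest. Neither has a replicate, and the cause was not tested.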

How the results depend on the processing

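The count of chaperone genes differing by 1.5-fold or more was 0 in the values reported and 3 under median centring, 3 under quantile normalization and 3 under loess, each time Bag3, Hspb6 and Pdia4, all lower in the knockout, and 0 under the other alternatives. Of all genes 3.51% did so in the values reported, and 3.48%, 3.39% and 3.40% under those 3 scalings. Under the other alternatives the share of all genes lay between 1.17% (filter at the 70th percentile) and 7.17% (no filter). Median centring put the median of the chaperone genes at -0.073 and that of all genes at -0.06. At 1.2-fold, 7 of 87 chaperone genes were higher without a filter, where 13.8% of all genes were. With the mean of probe sets 1 of 73 was higher, where 11.4% of all genes were, against 3 reported. At the same limit 12 of 73 were lower with the mean of probe sets, where 9.46% of all genes were, against 7 reported. With the filter at the 70th percentile 2 of 62 were lower, where 7.58% of all genes were, since dim genes drop out there. How the low-side share of the chaperones stood to that of all genes thus depended on the processing. The median of the small heat shock proteins was -0.039 with no filter, where 4 dim genes are added, and that of the other class C J proteins 0.028 with the mean of probe sets. The cause of the remaining shifts was not tested. Of 666 values of single genes under the alternatives, 7 moved by more than the array error. Many of them could not. The changed floors and filters leave the brightest probe set of these genes as it was, and averaging leaves genes with 1 measured probe set unchanged. Median centring moves every gene by the same 0.06, less than the smallest array error of 0.16. The count of 7 is thus no measure of how firm the values are. A sign changed in 21 of the 666 values, over 14 genes, and 4 of these moved by more than the array error. They were Dnaja2 at -0.22 and Hspa8 at 0.13 with the mean of probe sets, and Hspa8 at 0.54 and Cct7 at 0.01 without probe sets ending in _s_at, _x_at or _a_at. Cct7 was the 1 gene of the 14 whose reported value lay beyond its array error. Bag3 ranged from -0.62 to -0.47, Hspb6 from -0.61 to -0.49, Hspb8 from -0.47 to -0.22 and Pdia4 from -0.64 to -0.54. Dnajb1 ranged from 0.19 to 0.35 and Dnaja4 from 0.15 to 0.30. No paired analysis was possible because each genotype had 1 pooled array.

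Pooling hides the spread between mice, so no difference here has a replicate check. Dim probe sets carry a larger array error, and many genes rest on 1 probe set. Probes can match several transcripts, and the annotation can be old.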

Other observations

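Dnajc19, a mitochondrial J protein of the import motor, was left out because the annotation pairs its probe sets also with a pseudogene. Of its 3 probe sets, the first read 209.0 in the knockout and 235.9 in the wild-type pool (log2 difference -0.17) and the second 112.3 in the knockout and 94.9 in the wild-type pool (0.24). The third was too dim to count, at 36.0 in the knockout and 40.0 in the wild-type pool. The 2 measured ones lie on opposite sides.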
